A study of Mus musculus with 6 samples.

Results

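Esr1, the mouse gene for oestrogen receptor alpha, spans bases 4611989 to 5005633 of chromosome 10 (GRCm38), on the forward strand. Its H3K9me3 was read from every region of the deposited table that lies wholly inside this span, whichever gene symbol the table gives it. This took 23 of 202553 regions: 3 annotated as exon, 17 as intron and 3 as promoter. The table names 14 of the 23 Esr1 and the other 9 Syne1, its downstream neighbour. The gene was chosen by its counts in the 6 libraries: those of its exon regions were separate between the genotypes while those of its intron regions overlapped. The genotype values inside the span are therefore given as a description, with no test.

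The samples were quadriceps femoris, a thigh muscle, of Prr14-WT mice (replicates 3, 4 and 8) and Prr14-KO mice (replicates 4, 5 and 7), frozen and profiled by CUT&Tag with an antibody to H3K9me3. Its protein, PRR14, sits at the nuclear lamina and tethers heterochromatin there. The allele, the way the knockout was made, any transgene or Cre, and the strain, age and sex of the mice are details that the sources used here do not give. Nor do they say that each library is a separate mouse, so the spread between libraries may be technical in part. Library totals ran from 4324444 to 4756133 counts over all regions. Whole muscle was used, so a change in the share of nuclei and a change within each nucleus cannot be told apart. No input library and no spike-in was used here, so counts could not be set against the amount of DNA at each region, and a change of the mark itself inside Esr1 was not tested. H3K9me3 is no measure of expression and does not check the tissue label: of 12 muscle fibre genes 2 (Acta1 and Des) had a region within 1 kb of a start site, and of 16 markers of other cell types 5 did.

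Oestrogen receptor alpha is a nuclear receptor: when it binds oestradiol it pairs with a second copy, binds DNA at oestrogen response elements and recruits coactivators to its target genes. In skeletal muscle it is known for its part in metabolism and in the maintenance of the tissue. H3K9me3 marks compact, silent chromatin, forms broad domains over repeats and gene-poor stretches, and is bound by HP1. In CUT&Tag a transposase held at the antibody cuts and tags nearby DNA, so each count stands for DNA recovered there.

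RefSeq gives Esr1 2 start windows in the GRCm38.p6 promoter table, and the 250 bases before each start are shown because they place the promoter regions of the data. The proximal start, at 4710158, has its nearest region 760 bp away. For the distal start, at 4611989, the nearest region inside the gene is 58128 bp away, and a region outside it ends 4994 bp before the start. Capitals mark CG pairs, the sites of DNA methylation, 5′ to 3′ on the forward strand.
Esr1 distal start, chr10:4611739-4611988: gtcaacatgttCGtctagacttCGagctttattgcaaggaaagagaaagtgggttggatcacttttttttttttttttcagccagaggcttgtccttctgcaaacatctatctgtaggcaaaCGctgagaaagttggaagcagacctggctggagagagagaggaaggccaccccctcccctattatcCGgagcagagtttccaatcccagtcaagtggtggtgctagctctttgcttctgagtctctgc
Esr1 proximal start, chr10:4709908-4710157: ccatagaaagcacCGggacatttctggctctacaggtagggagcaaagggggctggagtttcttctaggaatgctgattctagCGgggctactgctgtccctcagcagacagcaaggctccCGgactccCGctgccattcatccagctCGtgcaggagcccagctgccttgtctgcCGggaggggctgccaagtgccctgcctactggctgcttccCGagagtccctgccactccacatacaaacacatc
The distal window holds 4 CG pairs and the proximal window 7, against a median of 6 over 32851 windows of this length. Neither holds the oestrogen response element half-site AGGTCA on either strand, which 14% of those windows do.

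The 3 exon regions held few counts in each wild-type library and many in each knockout library. The upstream exon region, at 4856925 to 4857194 (270 bp), is annotated to exons of 4 Esr1 transcripts. Wild-type replicates 3, 4 and 8 held 11, 3 and 3 counts there, while knockout replicates 4, 5 and 7 held 198, 71 and 70. Every knockout library was far above every wild-type library, and knockout replicate 4 stood above the other knockouts. In CPM, counts scaled to the size of the library, the region averaged 1.19 ± 0.949 over wild types against 25 ± 15.1 over knockouts (SD, n = 3). Its fitted log2 change, knockout over wild type, was 4.35 (SE 0.32), with 5.22 when wild-type replicate 3 was left out and 3.72 when knockout replicate 4 was. Other fits gave this change a larger SE, 0.77 by DESeq2 and 1.01 by limma-voom. The counts are reads placed at these positions, and whether they come from the native Esr1 gene was not tested.

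The middle exon region, at 4997828 to 4998013 (186 bp), lies 140633 bases further along. It held 4, 8 and 2 counts in the wild types and 81, 39 and 60 in the knockouts. Again the groups did not overlap, and the knockouts lay closer together than at the upstream exon. The means were 0.995 ± 0.660 and 13.4 ± 4.19 CPM (SD, n = 3), and the fitted log2 change was 3.72 (SE 0.41), with 4.34 when wild-type replicate 4 was left out. The distal exon region, at 5001186 to 5001420 (235 bp), follows after another 3172 bases. It held 1, 2 and 7 counts in the wild types and 148, 53 and 59 in the knockouts. Here too knockout replicate 4 was the highest and no library of one genotype reached the other. The means were 0.717 ± 0.697 and 19.2 ± 10.9 CPM (SD, n = 3), and the fitted log2 change was 4.71 (SE 0.39), with 5.80 when wild-type replicate 8 was left out and 4.13 when knockout replicate 4 was. The table names the middle and distal regions Syne1 from the nearest assigned start site, 71142 and 67760 bp away, but annotates both to exons of 3 Esr1 transcripts. The SE of both regions was again larger by other fits. For the middle region it was 0.50 by DESeq2 and 1.15 by limma-voom, and for the distal region 0.83 and 1.58. In the authors' deposited table the log2 fold changes of the upstream, middle and distal exon regions are 4.39, 3.72 and 4.78.

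**Figure D1:**
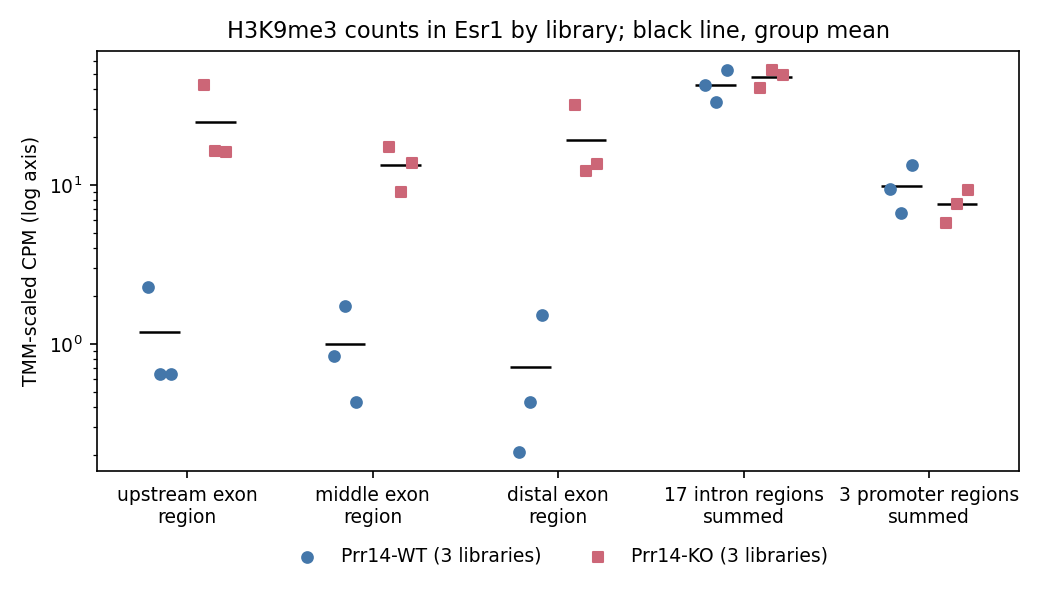
TMM-scaled CPM (log axis) in each of 6 libraries for the upstream, middle and distal exon regions and for the summed 17 intron and 3 promoter regions of Esr1, with black lines at group means. The exon points separate by genotype, with knockout means of 25, 13.4 and 19.2 CPM, while the intron and promoter points overlap.

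All 3 exon regions had every knockout value above every wild-type value, and none of the 20 intron and promoter regions did, in either direction. Over the whole table, 4.76% of regions had all knockout values above all wild-type values and 4.90% had them below. Since this contrast chose the gene, nothing is read from these counts.

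Together the exon regions held 16, 13 and 12 counts in the wild types and 427, 163 and 189 in the knockouts. Summed, they came to 2.91 ± 0.382 CPM for wild type against 57.6 ± 29.5 for knockout (SD, n = 3), a log2 change of 4.12. The wild-type libraries were close to each other, while knockout replicate 4 was 2.25 times the mean of the other knockouts. Without it the log2 change was 3.61. Knockout replicate 4 did not stand high in the rest of the gene. Its intron and promoter sum, 46.7 CPM, was the lowest of the knockouts, which held 60.6 in replicate 5 and 58.1 in replicate 7.

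The other 20 regions of the gene stood at much the same level in both genotypes. They summed to 51.6, 39.8 and 66.1 CPM in wild-type replicates 3, 4 and 8, and the wild-type values enclose all 3 knockout values. The means were 52.5 ± 13.1 and 55.1 ± 7.39 CPM (SD, n = 3), which is 0.07 apart on the log2 scale. The 17 intron regions alone gave 42.7 ± 9.77 and 47.6 ± 6.11 CPM, a log2 change of 0.15, and the 3 promoter regions 9.81 ± 3.38 and 7.54 ± 1.72, a log2 change of -0.36. The intron difference is smaller than the SD of either genotype. The promoter difference is smaller than the wild-type SD but larger than the knockout SD. The difference between the exon change and that of introns and promoters was 4.05 on the log2 scale.

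Per length, the exon regions lay below the rest of the gene in each wild-type library and above it in each knockout. These values, and the percentiles below, use the counts that chose the gene, so they are a description only. In the wild types the exon regions held 4.21 ± 0.553 CPM per kb and the intron and promoter regions 8.87 ± 2.22 (SD, n = 3). In the knockouts the exon regions held 83.3 ± 42.7 CPM per kb and the others 9.31 ± 1.25. The exon regions took 6.06%, 6.57% and 3.77% of all Esr1 counts in the wild types and 66.2%, 38.4% and 42.9% in the knockouts. The 95% Wilson intervals, which cover counting error only, run from 2.17% to 10.9% over the wild-type libraries and from 33.9% to 69.7% over the knockouts. They describe single libraries and are no test between genotypes, since this contrast chose the gene. Ranked by CPM per kb among all 202553 regions of a library, the upstream exon stood at percentiles 40.2, 4.47 and 3.41 in the wild types and at 99.9, 99.8 and 99.9 in the knockouts. The middle exon stood at 12.8, 47.4 and 3.16 and at 99.9, 99.7 and 99.9. The distal exon stood at 1.04, 2.87 and 23.9 and at 99.9, 99.8 and 99.8.

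The authors' score of a region, of which the sources used here give no meaning, ran from 6.77 to 27.3 for the exon regions and from 1.31 to 3.13 for the other 20. The score belongs to the region and not to a library.

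The division of the exon counts among the 3 regions varied less over the knockouts than their total. The upstream exon region took 46.4% of exon counts in knockout replicate 4 (95% Wilson interval 41.7 to 51.1%), 43.6% in replicate 5 (36.2 to 51.2%) and 37.0% in replicate 7 (30.5 to 44.1%). These intervals overlap. The distal exon region took 34.7%, 32.5% and 31.2%. The middle exon region took 19.0% in replicate 4 (15.5 to 23.0%), 23.9% in replicate 5 (18.0 to 31.0%) and 31.7% in replicate 7 (25.5 to 38.7%). The intervals of replicates 4 and 7 do not overlap, so their split differs by more than counting error. The wild-type libraries had too few exon counts to divide: over their 41 counts together the upstream, middle and distal shares were 41.5%, 34.1% and 24.4%, with intervals of 27.8 to 56.6%, 21.6 to 49.5% and 13.8 to 39.3%.

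**Figure D2:**
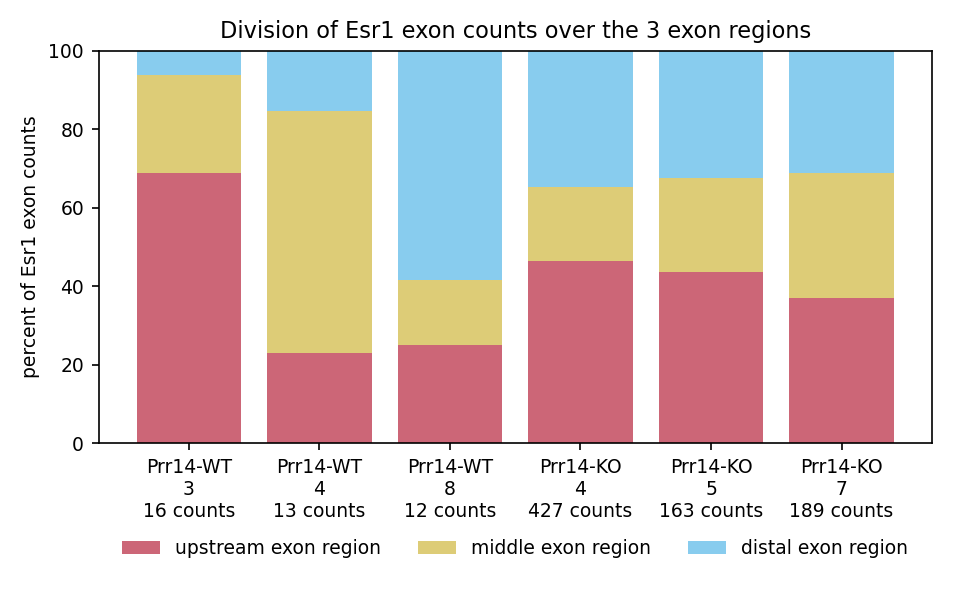
Percent of the counts in Esr1 exon regions (vertical axis) that fall in the upstream, middle and distal exon region, per library, with the library's exon counts below each bar. The knockout bars rest on 163 to 427 counts, the wild-type bars on 12 to 16.

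Of the 20 intron and promoter regions, 10 passed the filter on low counts, as did all 3 exon regions. The exon regions passed through their knockout counts. The other 10 held too little to fit, and no intron or promoter region held more than 37 counts in a library. Fitted log2 changes of the 10 ran from -0.89 to 0.82 with a median of 0.24, and the median over all regions tested was 0.00. The intron region with the most counts, at 4837540 to 4838307, held 20, 27 and 29 in the wild types and 35, 18 and 37 in the knockouts. Its groups overlap (log2 change 0.32, SE 0.36). The next was at 4965266 to 4965624, with 32, 16 and 28 against 25, 31 and 24 counts. It shows no separation either (0.16, SE 0.37). The intron region at 4817520 to 4818022 held 19, 21 and 23 against 23, 27 and 35 (0.51, SE 0.38), with a knockout library level with the highest wild type in counts.

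At the ends of this range the values were no more separate. The highest fitted intron change, 0.82 (SE 0.80) at 4912439 to 4912647, came from 1, 14 and 4 counts against 7, 13 and 12. The next, 0.55 (SE 0.44) at 4819698 to 4820124, came from 17, 6 and 26 against 20, 23 and 25. In both, the groups overlapped. The lowest, -0.89 (SE 0.55), was the promoter region at 4708303 to 4708528, near the proximal start, with 20, 8 and 29 counts in the wild types and 13, 10 and 6 in the knockouts. Next to it in order was an intron region at 4908296 to 4908624, with 22, 14 and 28 against 15, 14 and 15 (-0.46, SE 0.47).

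The regions beside the exons did not share their difference. The last intron region before the upstream exon, 4557 bp away, held 17, 4 and 14 counts in the wild types. In the knockouts it held 6, 8 and 3, and it did not pass the filter on low counts. The first after the upstream exon, 7861 bp away, held 14, 10 and 19 against 20, 22 and 13. The last intron region before the middle exon is the one at 4965266, 32203 bp away. After the distal exon the next region, 10357 bp on and outside the gene, held 13, 10 and 18 counts against 20, 13 and 5 (log2 change -0.04, SE 0.56). It is the first region past the end of the span. The last region before the start of the span, 4994 bp away and intergenic, held 1, 2 and 3 counts against 7, 14 and 9. It too had all knockouts above all wild types, but at 0.429 ± 0.220 and 2.27 ± 0.885 CPM (SD, n = 3) it did not pass the filter on low counts.

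**Figure D3:**
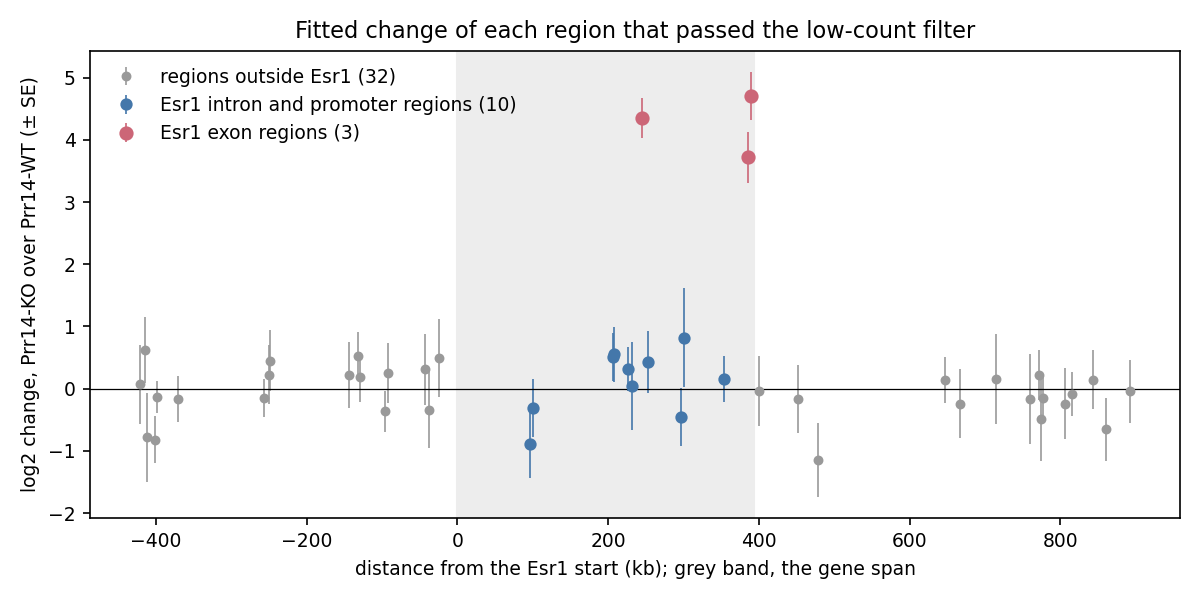
Fitted log2 change, Prr14-KO over Prr14-WT, with SE, of each region that passed the filter on low counts, by distance in kb from the Esr1 start, with the gene span in grey. The 3 exon regions lie at 3.72 to 4.71, the other 10 of Esr1 at -0.89 to 0.82, and the 32 within 500 kb outside it at -1.15 to 0.62.

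The chromatin around Esr1 was not used to choose the gene, and its difference could be tested. The 53 regions within 500 kb on either side summed to 169 ± 12.5 CPM for wild type against 167 ± 0.640 for knockout (SD, n = 3). The log2 change was -0.02 (exact permutation p = 1.0, two-sided, where 3 against 3 can give no less than 0.10). The 30 regions before the gene gave 97.0 ± 6.0 and 103 ± 1.33 CPM, and the 23 after it 72.3 ± 14.2 and 64.3 ± 0.816 (exact permutation p = 0.30 and 0.40). The 5 exon regions among them summed to 19.2 ± 4.59 and 19.1 ± 1.39 CPM (exact permutation p = 1.0). Syne1 encodes nesprin-1, a long protein of the nuclear envelope that links it to the cytoskeleton in muscle. Summed over the 35 regions the table gives it, Syne1 had 103 ± 15.3 CPM against 130 ± 10.7 in the knockouts. Its log2 change was 0.32 (SE 0.10). Of these regions 9 lie inside Esr1, among them the middle and distal exon regions, which helped to choose the gene. No test of this sum is therefore read. Without those 9 regions Syne1 had 85.8 ± 14.5 and 81.0 ± 1.30 CPM. The change turned to -0.10 (SE 0.12, edgeR adjusted p = 1.00), in a fit chosen after the data were seen.

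The other exon regions and genes are described on the contrast that chose Esr1, so nothing is read from the place of Esr1 among them. The other 3198 exon regions that passed the filter on low counts had a median log2 change of 0.03, with 95% of them between -0.90 and 1.10 and the highest at 2.45. Over all 153789 regions that passed, 5 had a log2 change above 3 (0.00325%): the 3 Esr1 exons and an intron region each of Lurap1l and Foxp2. The Lurap1l region held 0, 3 and 0 counts against 17, 12 and 14, and that of Foxp2 0, 2 and 1 against 11, 10 and 14. Both had fewer knockout counts in every library than any Esr1 exon region. By the same contrast in 549 other genes with enough exon and intron counts, the exon minus intron log2 change had a median of 0.02, 95% of genes between -0.85 and 0.76, and the highest at 1.62. The value for Esr1, computed the same way, was 3.94.

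**Figure D4:**
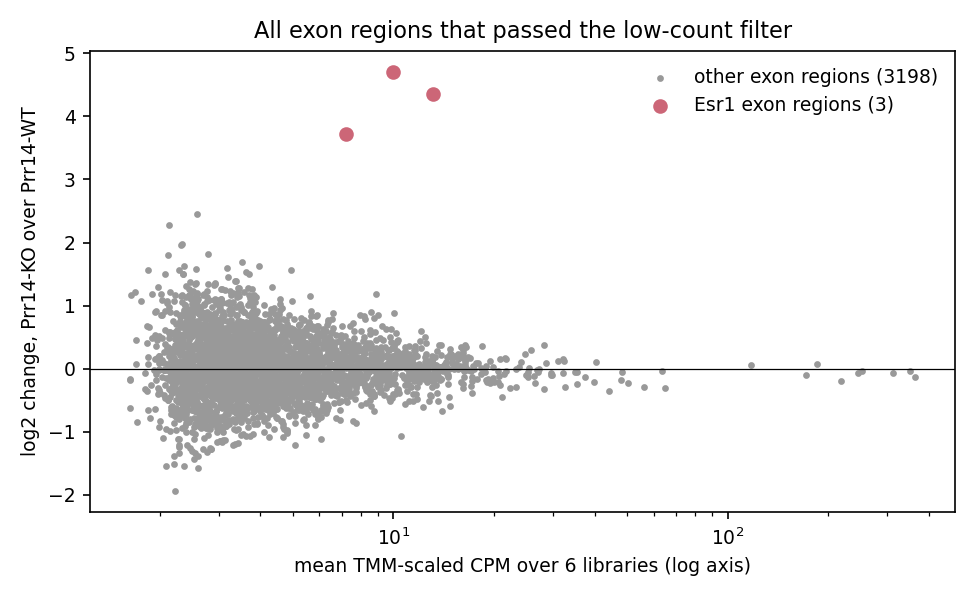
Log2 change, Prr14-KO over Prr14-WT, against mean TMM-scaled CPM over 6 libraries (log axis) for exon regions that passed the filter on low counts. The 3 Esr1 regions lie at 3.72 to 4.71, above the other 3198, whose highest value is 2.45.

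The genes closest to Esr1 in this exon minus intron change were Baiap2l2 (1.62), Eif2ak4 (1.44), Get4 (1.28), Ece1 (0.96) and Abcc3 (0.94). Baiap2l2 exons held 5.62, 3.87 and 3.67 CPM in the wild types and 6.21, 9.48 and 9.91 in the knockouts, and its introns held 7.29, 5.81 and 7.34 against 3.64, 3.24 and 4.84. There the exon change was 0.89 and the intron change -0.73. The exon values of Eif2ak4 and Abcc3 overlapped between the genotypes, while those of Get4 and Ece1 did not. Eif2ak4 exons held 0.857 CPM in knockout replicate 4, below the 1.25, 3.01 and 3.02 of the wild types. The intron change of Get4 rests on 1 region, with 0 CPM in knockout replicate 4. By likeness over the 6 libraries, which fall into 2 genotypes, the exon sums of Snrnp48 (r = 0.956), Sim2 (0.889), Myh3 (0.881), Ano2 (0.871) and Pde6c (0.865) followed that of Esr1 most closely among 747 other genes. Their sizes were far smaller. Snrnp48, a gene of the minor spliceosome, had exon sums of 16.7, 18.1 and 19.0 CPM against 27.4, 22.9 and 25.6, a log2 change of 0.49, and Myh3, the embryonic myosin heavy chain, had one of 0.81.

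A list of other genes of oestrogen signalling and 12 neighbours of Esr1 on chromosome 10 was read from gene sums. Each sum took all regions the table assigns to a symbol, intergenic ones included. Of 54 genes on the list 44 had a region and 41 were tested, and 0 passed an edgeR adjusted p of 0.05 in either direction. DESeq2 and limma-voom also called 0. By edgeR 3 had an unadjusted p under 0.05 (Esrrg, Ccnd1 and Syne1). The Syne1 sum includes regions inside Esr1, among them the middle and distal exon regions, which helped to choose the gene. Nothing is therefore read from its p. Without the regions inside Esr1 the unadjusted edgeR p of Syne1 was 0.39. Over all 15266 genes tested, 0.0393% were called, 0% higher and 0.0393% lower, and 3.58% had an unadjusted p under 0.05. Without knockout replicate 4, 18 gene sums were called, 7 higher and 11 lower, and 0 of the list. The list had a median log2 change of 0.05, and all genes one of 0.00.

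Among the related receptors, Esr2, the gene of oestrogen receptor beta, had 22.8 ± 4.84 CPM against 24.4 ± 7.20 in the knockouts over 3 regions (SD, n = 3; log2 change 0.08, SE 0.20). The oestrogen-related orphan receptor genes were Esrrb, with 96.4 ± 9.55 and 96.4 ± 11.9 CPM (-0.02, SE 0.11), and Esrrg, with 283 ± 28.9 and 249 ± 40.2 (-0.21, SE 0.09, edgeR adjusted p = 1.00). The table gave the orphan receptor gene Esrra 0 regions. Pgr, the progesterone receptor gene and a classical oestrogen target, had 145 ± 1.58 and 154 ± 8.91 CPM (0.06, SE 0.09). Nr3c2, the mineralocorticoid receptor gene, stood at 323 ± 28.6 and 324 ± 22.0 (-0.02, SE 0.08). None of these receptor genes passed the test.

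Nor did any partner or target gene. Coregulator sums, among them the coactivator gene Ncoa1 and the corepressor gene Ncor1, had log2 changes from -0.53 to 0.68 over 7 tested genes. Gata3, a transcription factor that works with the receptor in breast tissue, had 402 ± 10.9 and 408 ± 22.7 CPM over 101 regions (SD, n = 3; -0.00, SE 0.07). Of the targets, Ccnd1, the cyclin D1 gene, had 23.8 ± 3.16 and 32.6 ± 2.44 CPM (0.43, SE 0.18, edgeR adjusted p = 1.00). The genes of oestrogen synthesis and clearance, such as the aromatase gene Cyp19a1, ran from -0.12 to 0.18 over 3 tested. Of the neighbours on chromosome 10, Rgs17, a regulator of G protein signalling, had the most counts, at 277 ± 4.16 and 283 ± 22.6 CPM (0.01, SE 0.08).

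**Figure D5:**
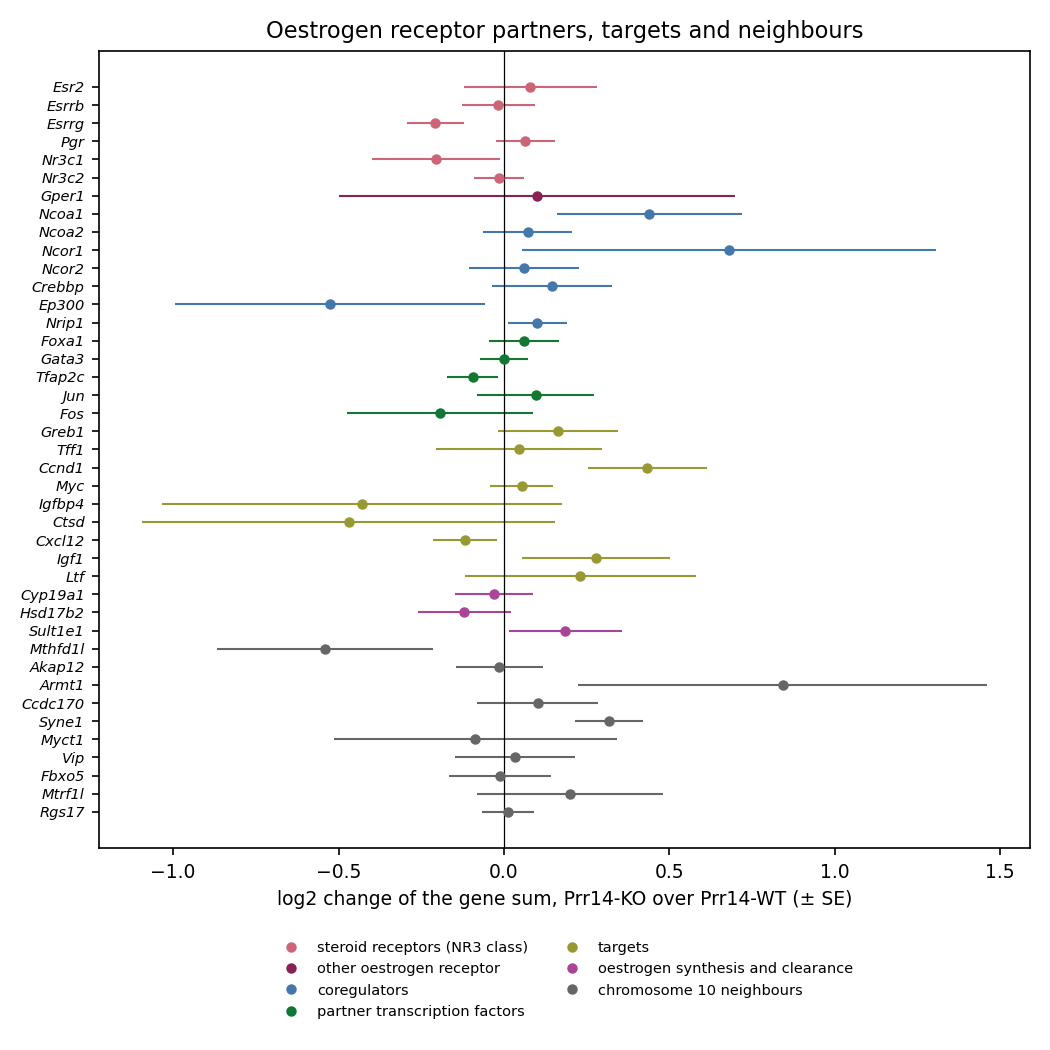
Log2 change of the gene sum, Prr14-KO over Prr14-WT, with SE, for the 41 tested genes of oestrogen signalling and the neighbourhood of Esr1, coloured by role. The values run from -0.54 to 0.84 and none passed the test; Syne1 includes the 9 regions inside Esr1.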

How the data were processed

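H3K9me3 CUT&Tag was measured in 3 Prr14-WT and 3 Prr14-KO libraries, grouped by their genotype labels. Per the submitters' processing notes, the tools were BWA, Trimmomatic, MACS2, bedtools, deepTools and DESeq2 1.6.3 and the build GRCm38, with no settings. The authors deposited, per the file headers, 1 table of regions with a raw count per library, which was tested here. The deposited normalised signal, the authors' p-values and the authors' adjusted p-values were not used. The authors' log2 fold change (per the file headers) and their score are printed as deposited for the exon regions. Positions are as the table gives them, and widths count both end bases.

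Counts were fitted with edgeR 4.0.16 in R 4.3.3: filterByExpr (minimum count 10, total 15), TMM on table totals, robust quasi-likelihood, Benjamini-Hochberg over all features. The SE of an edgeR change is its absolute log2 change divided by the square root of the quasi-likelihood F. Sums are TMM-scaled CPM, and their log2 changes are ratios of group means with a prior count of 2. Exon and intron sums of other genes used a pseudocount of 0.5 CPM, at least 2 exon regions and at least 60 counts in each class. For flanks, log2 sums were compared by exact permutation, two-sided, with SciPy 1.17.1. Alternatives were RLE factors, library totals, other filters and priors, DESeq2 1.42.0, limma-voom 3.58.1 and leaving out each library.

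The members and lists were chosen with earlier results of these data known. Regions and genes named were all exon regions, the 3 intron or promoter regions with the most counts and the 2 highest and 2 lowest changes among them, the 5 genes most like Esr1 by each measure, and for the list Esr2, Esrra, Esrrb, Esrrg, Pgr and Syne1, the 3 with the most counts (Gata3, Nr3c2 and Rgs17) and any that passed. Ccnd1, Lurap1l, Foxp2 and the examples of a role were chosen after their values were seen. The exon sequences are not printed, because no genome was used here. 1 gene of the list is not reported here.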

Additional observations from a re-analysis of the deposited data

How the results depend on the processing

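The exon sum of Esr1 had a log2 change of 4.12 and stayed between 4.11 and 4.26 under RLE factors, library totals, a prior count of 0.5 and filtered regions only. Leaving out 1 library gave 3.61 to 4.35, the lowest without knockout replicate 4. Intron and promoter regions gave -0.09 to 0.26, and the exon minus intron and promoter change 3.44 to 4.35. Single exon regions depended most on the wild-type library with the most counts: without wild-type replicate 3 the upstream exon gave 5.22, without replicate 4 the middle exon 4.34 and without replicate 8 the distal exon 5.80, from 41 wild-type exon counts in all. The 500 kb flanks changed sign from -0.02 to 0.06 with 200 kb (exact permutation p = 0.60) and, leaving out 1 library, ran from -0.06 to 0.03 (0.03 without wild-type replicate 8); the cause was not tested. Syne1 turned from 0.32 to -0.10 without the regions inside Esr1. Gene sums called numbered 6, all lower, and 18 without knockout replicate 4, of which 7 were higher (6 to 18 leaving out 1 library). Classes from exon overlap in a reference annotation were not run, because no annotation was used here. No paired analysis was possible, because the labels give no pairing of libraries between the genotypes.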
